A study of Mus musculus with 4 samples.

Results

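The 40 genes described here carry interferon signals from receptor to response: 4 receptors, 3 receptor kinases, 10 STAT and IRF factors, 3 feedback inhibitors, 4 RNA sensors and adaptors and 16 interferon-induced effectors. They were chosen by name from knowledge of the pathway, with earlier results of these data known. Of the 40, 30 have at least 1 promoter CpG site read at least 20 times in all 4 tumors. A promoter is the window from 1000 bp upstream to 500 bp downstream of every transcription start site on mm10, and its value in a tumor is the mean methylation of its qualified sites. Across the whole series 20135 of 55450 annotated genes have such a site.

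The series holds reduced representation bisulfite sequencing of 4 bulk tumors from a mouse lung adenocarcinoma line that carries p53 R172HΔg/+. There are 2 tumors of the parental line 344SQP and 2 of 344SQR, a derivative resistant to anti-PD1. Female 129Sv/Ev mice aged 12 to 16 weeks received tumor cells under the skin of the leg, then anti-PD1 at 10 mg/kg into the peritoneum from day 4 for 4 doses, and tumors were taken 24 h after the last dose. All 4 mice received anti-PD1, so line and response to the antibody cannot be told apart, and there is no untreated tumor.

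Type I interferons bind Ifnar1 and Ifnar2, and interferon gamma binds Ifngr1 and Ifngr2. The bound receptors pass the signal through Jak1, Jak2 and Tyk2 to STAT and IRF factors that enter the nucleus and turn on antiviral genes. RNA sensors in the cytoplasm start the same response from inside the cell.

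The tumors gave 116794455, 138331886, 160548303 and 174689402 CpG calls in the order 344SQP 1, 344SQP 2, 344SQR 1 and 344SQR 2, the order used for every set of 4 values below. In all 4 tumors 1081201 sites had at least 20 reads, with a mean coverage of 103, 121, 140 and 144 reads. At 20 reads a single read moves a site by 5 points.

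By the likelihood ratio test per site combined per promoter, 9 of the 30 measured members were called at FDR under 0.05, 30% beside 38.5% of all promoters (7750 of 20135). Of these, 8 were lower in 344SQR (Irf5, Irf8, Dhx58, Mavs, Oas2, Oasl1, Bst2 and Trim25) and 1 was higher (Irf9), 26.7% and 3.33% beside 29.5% and 9.02% of all promoters. This test counts every read as an independent draw and has no term for spread between tumors of a line. In 15 of 30 members the tumors of the lines did not overlap, 50.0% beside 39.9% of all promoters, 11 of them lower and 4 higher in 344SQR (36.7% and 13.3%, beside 32.4% and 7.53% of all promoters). The median difference over members was -0.178 points, and over all promoters it was -0.234 points. The split of 8 lower and 1 higher became 5 and 4 without 344SQP 1, 6 and 1 without 344SQP 2, 7 and 1 without 344SQR 1, and 6 and 0 without 344SQR 2. Without 344SQP 1 the calls of Dhx58, Irf9, Mavs and Trim25 were lost, and Irf7, Parp14, Socs3 and Stat2 were called instead. Of all 20135 promoters, 7308 were called without 344SQP 1, 6997 without 344SQP 2, 8488 without 344SQR 1 and 6566 without 344SQR 2. The direction of these calls over all promoters is not given, so the member splits have no such share beside them.

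edgeR, which includes the spread between tumors, called 0 of the 30 members, beside 0.0745% of all promoters (15 of 20124). At unadjusted p under 0.05 edgeR had 2 members, Bst2 (edgeR adjusted p 0.214) and Irf5 (edgeR adjusted p 0.25), and the likelihood ratio test called 9. Over all promoters edgeR had 1769 at unadjusted p under 0.05. With 2 tumors against 2, an exact permutation p cannot go below 0.333.

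The mean over the 30 members was 10.7, 11.4, 9.96 and 10.3%, or 11.1 ± 0.486% in 344SQP and 10.1 ± 0.231% in 344SQR (mean ± SD), a difference of -0.949 points. Both 344SQR tumors lay below both 344SQP tumors. Without 344SQP 2 the difference was -0.606 points. Over all promoters the means were 22.9, 24.5, 21.8 and 21.6%. Of the members, 17 (56.7%) stayed under 3% in every tumor and 24 (80.0%) under 10%, beside 46.3% and 57.4% of all promoters. Among promoters under 10% in every tumor, 5 of 24 members were called (20.8%), all lower, beside 16.4% of all such promoters (1896 of 11567), of which 13.8% were called lower.

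**Figure D1:**
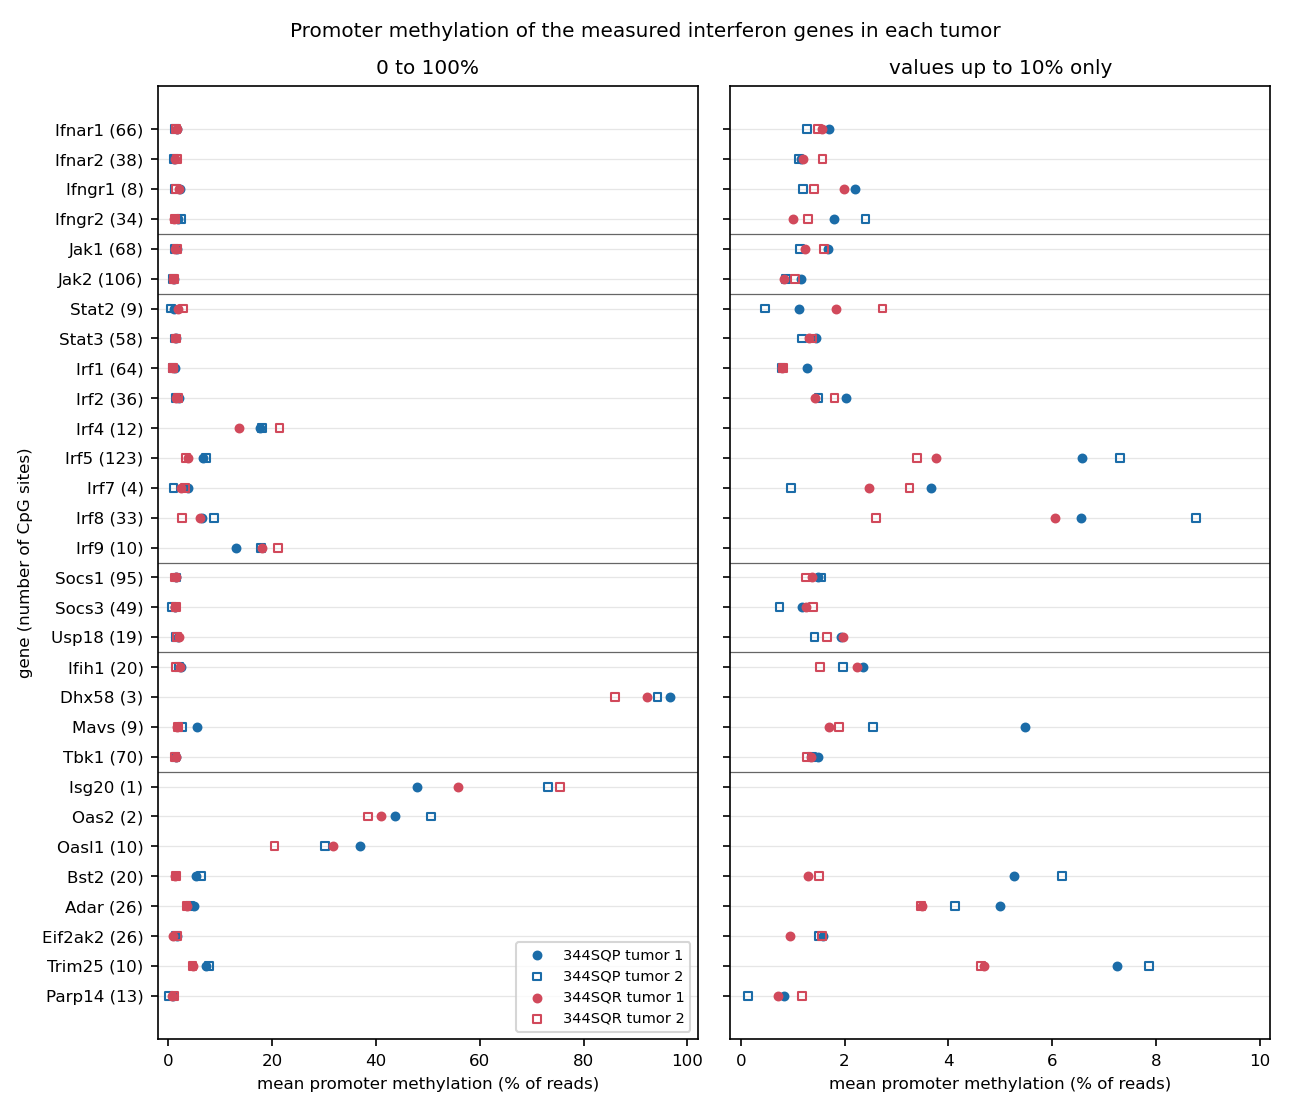
Promoter methylation of the measured members in each tumor, by role. Irf5 (6.57, 7.30, 3.76 and 3.403%) and Bst2 (5.26, 6.20, 1.31 and 1.51%) have no overlap between the lines, and Irf9 is the 1 member called higher in 344SQR.

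None of the 4 receptor promoters was called, beside 38.5% of all promoters, and all stayed under 3% in every tumor. Ifnar1, the chain of the type I receptor that binds Tyk2, had 1.70, 1.28, 1.57 and 1.49% over 66 sites, and the lines overlapped. Ifnar2, the high-affinity type I chain, had 1.15, 1.12, 1.19 and 1.58% over 38 sites, with both 344SQR tumors above both 344SQP tumors. Ifngr1, which binds interferon gamma, had 2.20, 1.20, 1.99 and 1.41% over 8 sites, and its 2 line means were equal. The tumors of Ifngr2, the signalling chain of that receptor, did not overlap at 1.79, 2.40, 1.01 and 1.30% over 34 sites (-0.940 points, FDR 0.129).

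Among the receptor kinases, Jak1 and Jak2 were measured and neither was called. Jak1, which serves both receptor types, had 1.68, 1.14, 1.24 and 1.61% over 68 sites. Jak2, which pairs with Ifngr2, had 1.15, 0.870, 0.825 and 1.05% over 106 sites. In both genes the lines overlapped. Tyk2, the kinase bound to Ifnar1, has no qualified promoter site.

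Of the 9 measured STAT and IRF factors 3 were called (33.3%), beside 38.5% of all promoters. Irf5, a factor for inflammatory cytokine genes in myeloid cells, fell by 3.36 points, from 6.57 and 7.30% to 3.76 and 3.403% over 123 sites read 29 to 485 times (FDR 1.27e-83). Both 344SQR tumors were below both 344SQP tumors, 92 of its sites were lower in 344SQR, and 45 sites were called, all lower. The call remained with any single tumor left out, with differences from -3.72 to -2.99 points. The 28 upstream sites of Irf5 had 16.4, 16.7, 8.14 and 8.07%, the 33 sites in its untranslated exon 4.04, 4.22, 2.02 and 1.60%, and the 62 intron sites 3.47, 4.70, 2.70 and 2.25%. The lines did not overlap in any of these 3 zones.

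The highest zone of Irf5 lies more than 250 and up to 500 bp upstream of the start site, where 6 sites had 40.6, 45.9, 25.8 and 22.8%. The site at chr6:29526303, at -322 bp, had 50.0, 42.9, 18.2 and 12.5% on 34, 35, 44 and 32 reads, and the site at chr6:29526216 had 52.9, 65.9, 41.0 and 26.2%. Nearer the start site, at -81 bp (chr6:29526544), values were 30.3, 30.8, 5.30 and 5.80%. At each of these 3 sites of Irf5 both 344SQR tumors lay below both 344SQP tumors. The reference stretch chr6:29526186-29526306 (GRCm38, + strand) holds the 6 sites of the zone, shown because the largest single-site difference in member promoters lies in it, and CpGs with a qualified site are in capitals.
Irf5 upstream stretch: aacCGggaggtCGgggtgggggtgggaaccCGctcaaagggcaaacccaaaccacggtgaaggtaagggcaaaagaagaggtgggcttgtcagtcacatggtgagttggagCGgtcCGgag

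**Figure D2:**
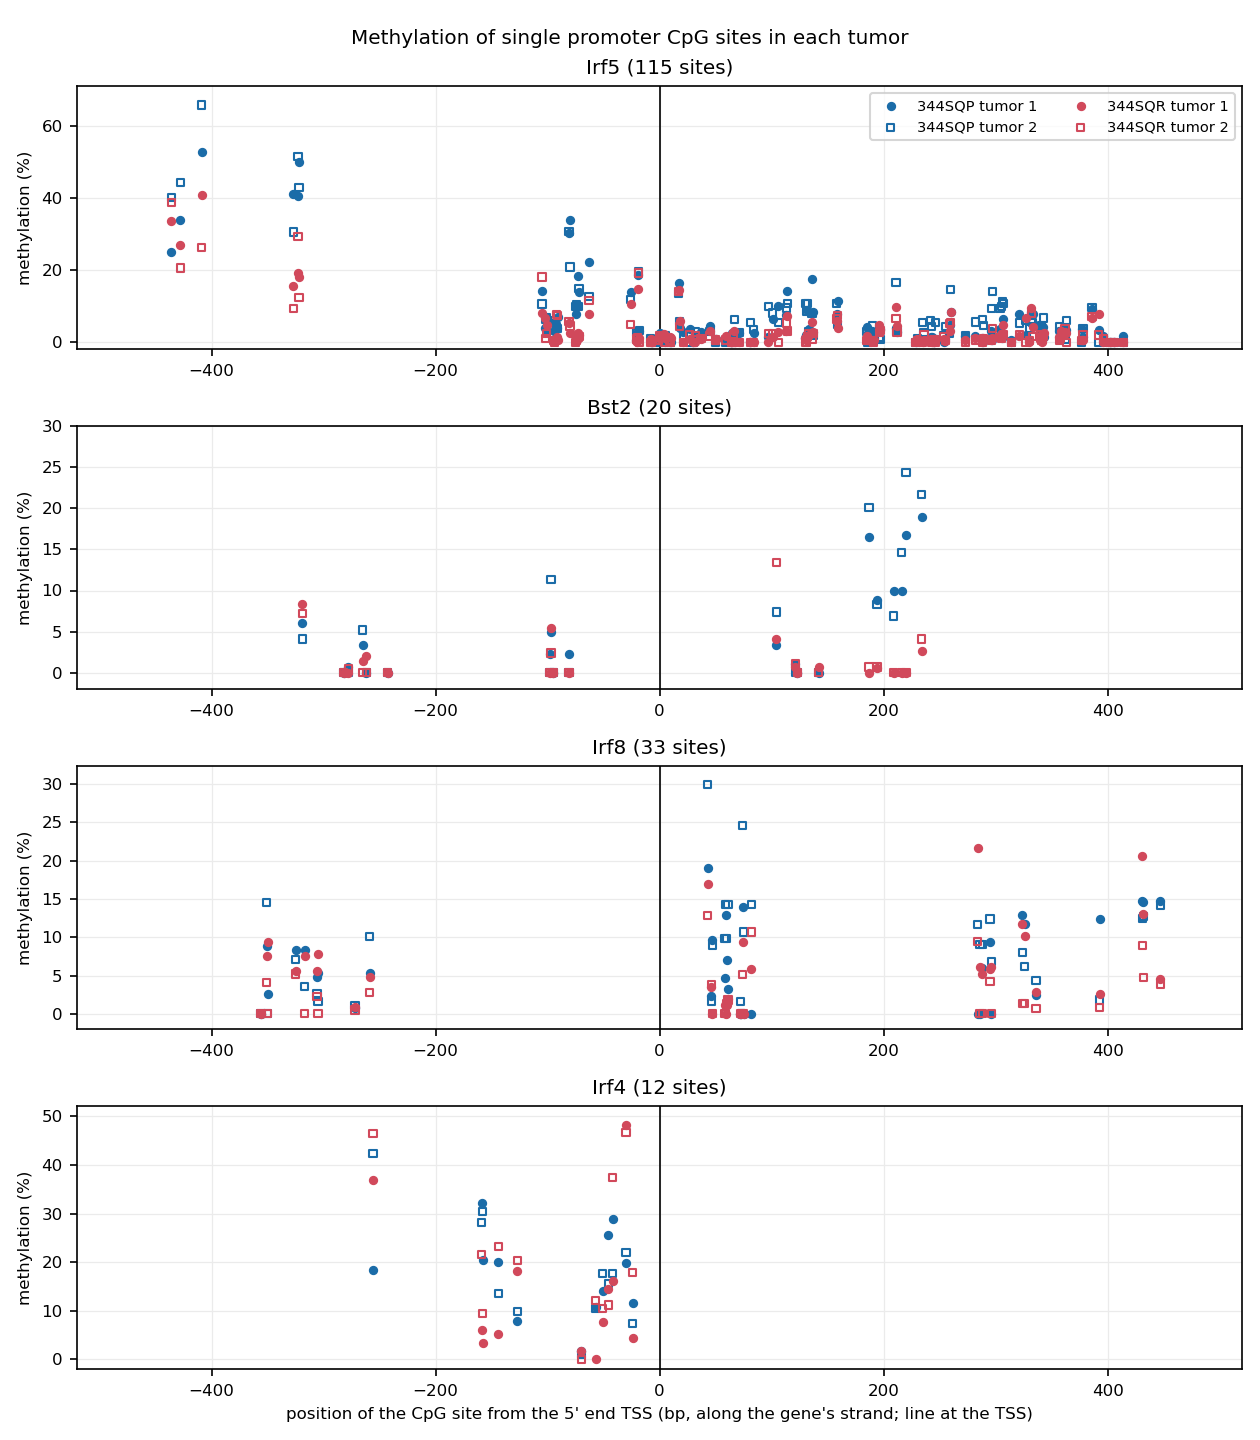
Single CpG sites of member promoters by distance from the start site. At Irf5 chr6:29526544 the tumors had 30.3, 30.8, 5.30 and 5.80%, and at Irf4 chr13:30749196 they had 19.8, 21.9, 48.3 and 46.7%.

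Irf8, a factor of macrophage and dendritic cell development, fell by 3.34 points over 33 sites read 30 to 230 times, with 6.55, 8.77, 6.05 and 2.60% (FDR 5.23e-14). The 2 lines did not overlap, and 10 sites were called lower and 1 higher. The difference was -1.61 points without 344SQR 2 and -5.06 points without 344SQR 1, and the call remained with any tumor left out. Within 250 bp downstream of a start site, 12 sites of Irf8 had 6.07, 11.7, 3.33 and 2.96%, without overlap. The lines overlapped at its 9 upstream sites (4.93, 4.52, 5.46 and 1.66%) and at its 12 sites farther downstream (8.25, 9.08, 9.22 and 2.96%). With sites of at least 10 reads the Irf8 difference was -1.46 points over 49 sites, still called (FDR 6.62e-08).

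Irf9, which joins Stat2 in the type I complex, rose by 4.18 points over 10 sites read 49 to 172 times, with 13.0, 17.8, 18.1 and 21.1% (FDR 0.00144). Tumors of 344SQR lay above those of 344SQP, 6 of its sites were higher in 344SQR and 0 lower, and 2 sites were called, both higher. Irf9 was not called without 344SQP 1 (1.78 points, FDR 0.129) or without 344SQR 2 (2.64 points, FDR 0.112), and without 344SQP 2 the difference was 6.58 points.

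Irf4, a factor of lymphocyte and alternatively activated macrophage programs, had 17.6, 18, 13.5 and 21.4% over 12 sites read 79 to 170 times and was not called (FDR 0.495). The lines overlapped, and its difference of -0.350 points became 3.60 points without 344SQR 1. Without 344SQR 2 it became -4.30 points and was called (FDR 9.45e-06). Single Irf4 sites went in both directions, with 2 called lower and 3 higher. The site at chr13:30749196, at -30 bp from the start site, had 19.8, 21.9, 48.3 and 46.7% on 121, 96, 118 and 107 reads. The reference stretch chr13:30749064-30749205 (GRCm38, + strand) holds 11 of the 12 Irf4 sites and is shown because neighboring sites go in opposite directions, with measured CpGs in capitals.
Irf4 upstream stretch: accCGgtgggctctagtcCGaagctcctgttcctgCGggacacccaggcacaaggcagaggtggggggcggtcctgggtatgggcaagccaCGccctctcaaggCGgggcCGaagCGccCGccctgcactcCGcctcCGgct

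The other measured factors stayed under 4% in every tumor and were not called. Stat2, the STAT partner of Irf9, had 1.12, 0.467, 1.83 and 2.73% over 9 sites, with both 344SQR tumors above both 344SQP tumors (FDR 0.0572). Stat3, which also carries interleukin 6 signals, had 1.44, 1.19, 1.32 and 1.38% over 58 sites. The lines overlapped for Stat3 and for the next 3 genes. Irf1, the early factor induced by interferon gamma, had 1.28, 0.784, 0.788 and 0.808% over 64 sites, and Irf2, its antagonist, had 2.04, 1.50, 1.43 and 1.81% over 36 sites that all lie in the promoter of Gm16675 as well. Irf7, which amplifies type I interferon production, had 3.68, 0.975, 2.48 and 3.25% over 4 sites. Irf3, which starts type I interferon transcription, has no qualified promoter site. Without 344SQP 1, Irf7 (1.89 points, FDR 0.00352) and Stat2 (1.82 points, FDR 0.0188) were called, both higher in 344SQR.

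None of the 3 feedback inhibitors was called, beside 38.5% of all promoters, and all were under 3% in every tumor. Socs1, which blocks Jak kinases, had 1.49, 1.54, 1.38 and 1.25% over 95 sites, with both 344SQR tumors below both 344SQP tumors. Socs3, an inhibitor of Stat3 signals, had 1.18, 0.745, 1.25 and 1.39% over 49 sites, with both 344SQR tumors above both 344SQP tumors, and without 344SQP 1 it was called (0.576 points, FDR 0.0303). The lines overlapped for Usp18, which removes Isg15 from proteins and binds Ifnar2, at 1.93, 1.42, 1.98 and 1.66% over 19 sites.

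Of the 4 RNA sensors and adaptors 2 were called, both lower, beside 29.5% of all promoters. Mavs, the adaptor on mitochondria, fell by 2.22 points over 9 sites read 61 to 124 times, with 5.48, 2.54, 1.70 and 1.89% (FDR 0.00414). The lines did not overlap at Mavs. Mavs was not called without 344SQP 1 (-0.750 points, FDR 0.927), and without 344SQP 2 the difference was -3.68 points. Dhx58, a regulator of RNA sensing, fell by 6.32 points over 3 sites read 68 to 132 times, with 96.6, 94.2, 92.2 and 86.0% (FDR 0.0157). Its lines did not overlap, and 1 of the 3 sites, at chr11:100705192, had 95, 92.9, 81.7 and 64.4%. Dhx58 was not called without 344SQP 1 (-5.12 points, FDR 0.134) or without 344SQR 2 (-3.20 points, FDR 0.612).

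The other 2 genes of that group were not called. Ifih1, the sensor of long double-stranded RNA, had 2.36, 1.98, 2.25 and 1.52% over 20 sites, and the lines overlapped. Tbk1, the kinase that activates Irf3, had 1.49, 1.37, 1.36 and 1.28% over 70 sites, with both 344SQR tumors below both 344SQP tumors.

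Of the 16 interferon-induced effectors, 8 were measured and 4 were called, all lower in 344SQR, beside 29.5% of all promoters called lower. Bst2, which tethers budding virus to the cell surface, fell by 4.32 points over 20 sites read 43 to 209 times, with 5.26, 6.20, 1.31 and 1.51% (FDR 3.21e-19). Both 344SQR tumors were below both 344SQP tumors, and the call remained with any tumor left out, with differences from -4.79 to -3.86 points. The 10 coding exon sites of Bst2 had 8.55, 10.3, 0.870 and 2%, and the 10 upstream sites had 1.97, 2.06, 1.74 and 1.01%. The stretch of coding exon at chr8:71537219-71537355 (GRCm38, - strand) holds the 10 exon sites and is shown because the Bst2 difference lies there, with measured CpGs in capitals.
Bst2 coding exon: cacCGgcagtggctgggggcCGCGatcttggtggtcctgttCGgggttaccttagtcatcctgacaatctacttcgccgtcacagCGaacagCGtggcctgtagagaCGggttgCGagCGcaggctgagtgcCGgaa

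Trim25, the ligase that activates RNA sensing, fell by 2.91 points over 10 sites read 32 to 126 times, with 7.26, 7.87, 4.68 and 4.63% (FDR 0.0226). No 344SQR value of Trim25 reached a 344SQP value. Its 4 upstream sites had 16.3, 16.4, 9.90 and 10.2%, and its 6 coding exon sites had 1.27, 2.18, 1.20 and 0.933%. Trim25 was not called without 344SQP 1 (-3.22 points, FDR 0.132), 344SQP 2 (-2.61 points, FDR 0.135) or 344SQR 1 (-2.94 points, FDR 0.109).

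Oasl1, an inhibitor of Irf7 translation, fell by 7.50 points over 10 sites read 51 to 176 times, with 36.9, 30.1, 31.6 and 20.4% (FDR 1.09e-09), and the lines overlapped. Without 344SQR 2 it was not called (-1.90 points, FDR 0.275), and without 344SQR 1 the difference was -13.1 points. All 10 Oasl1 sites also lie in the promoter of Gm13822. The coding exon site at chr5:114923576 had 86.4, 76.5, 69.2 and 41.9%, a difference that was -12.3 points without 344SQR 2 and -39.6 points without 344SQR 1. The stretch chr5:114923417-114923579 (GRCm38, + strand) holds 7 Oasl1 sites and is shown because it includes that site, with measured CpGs in capitals.
Oasl1 coding exon: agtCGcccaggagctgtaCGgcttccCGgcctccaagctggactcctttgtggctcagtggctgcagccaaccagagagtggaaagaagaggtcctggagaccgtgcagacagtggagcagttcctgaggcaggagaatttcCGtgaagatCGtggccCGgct

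Oas2, which makes the second messenger that activates RNase L, fell by 7.45 points over 2 sites, with 43.6, 50.7, 41.0 and 38.4% (FDR 0.0304). At these 2 sites of Oas2 the 344SQR tumors lay below the 344SQP tumors. Reads pooled over the whole Oas2 promoter, including sites below the coverage minimum, gave 37.0, 38.8, 34.0 and 37.8%. These came from 173, 152, 200 and 275 reads, and the lines overlapped. Oas2 was not called without 344SQP 2 (-3.93 points, FDR 0.377) or without 344SQR 2 (-6.18 points, FDR 0.254).

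The other 4 measured effectors were not called. Adar, which edits double-stranded RNA, had 4.99, 4.13, 3.49 and 3.47% over 26 sites without overlap between the lines (FDR 0.460). Eif2ak2, the kinase that stops translation on double-stranded RNA, had 1.58, 1.52, 0.954 and 1.57% over 26 sites, 7 of them shared with Gm26637. The lines overlapped for Eif2ak2, Parp14 and Isg20. Parp14, an ADP-ribosyl transferase, had 0.838, 0.146, 0.715 and 1.18% over 13 sites and was called only without 344SQP 1 (0.8 points, FDR 0.0174). Isg20, an RNA exonuclease, had 47.8, 73.1, 55.8 and 75.4% at its only site.

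The 10 members without a qualified promoter site are Tyk2, Irf3, Isg15 (a ubiquitin-like protein), Ifit1, Ifit2 and Ifit3 (which bind viral RNA), Ifi35 (a partner of Nmi), Oas3 (a synthase beside Oas2), Rsad2 (which makes a chain-ending nucleotide) and Mx1 (a GTPase against influenza virus). Their median CpG observed to expected ratio was 0.213, beside 0.589 for the 28 members with at least 3 sites, 0.246 for all genes and 0.501 for protein-coding genes. Their median number of CCGG sequences, where MspI cuts, was 1.50, beside 7 for the members with at least 3 sites. Tyk2 and Irf3 have ratios of 0.543 and 0.615, and Ifit3 has 0.0828. Below the coverage minimum, reads pooled over the promoter gave 0.680, 3.67, 0.629 and 3.15% for Irf3 on 147, 109, 159 and 286 reads, with 95% Wilson bounds of at most 9.06%. Tyk2 had 0, 11.4, 10.6 and 5.80% on 43, 70, 85 and 207 reads, with bounds of at most 20.96%. The other 8 genes had at most 39 pooled reads in any tumor, and no promoter value is given for them.

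Single sites of the members were mostly unmethylated. Of 1042 qualified sites in member promoters, 904 (86.8%) were under 10% in all 4 tumors, beside 71.9% of all 604870 promoter sites. Called sites numbered 107 (10.3%), beside 14.7% of all promoter sites and 24.4% of all 1081201 sites, and 92 of the 107 were lower in 344SQR and 15 higher (8.83% and 1.44% of member sites, beside 9.44% and 5.31% of all promoter sites). Irf5 alone holds 45 of the 92, and without it 62 of 919 sites were called (6.75%), 47 lower and 15 higher. Member sites more than 250 and up to 500 bp upstream had 5.77, 5.86, 4.43 and 3.93% (101 sites), and those from the start site to 250 bp downstream had 2.80, 3.002, 2.24 and 2.12% (448 sites). The 268 sites just upstream of the start site had 2.77, 2.62, 1.76 and 2.36%, and the 196 sites farthest downstream had 3.44, 2.995, 2.91 and 2.18%. In these 4 zones of the members the 344SQR tumors lay below the 344SQP tumors. Without Irf5 the lines overlapped just upstream (2.16, 2.06, 1.64 and 2.28%) and farthest downstream (3.58, 3.048, 3.054 and 2.29%), and they did not overlap in the other 2 of these zones (3.57, 3.33, 3.09 and 2.74%, and 2.648, 2.646, 2.21 and 2.16%). More than 500 bp upstream the lines overlapped, at 15.1, 13.9, 13.8 and 14.6% over 29 sites.

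Gene bodies outside promoter windows were measured in 31 members, and 19 were called: 16 lower in 344SQR (51.6%) and 3 higher (9.68%), beside 60.6% lower and 6.76% higher of all 17690 gene bodies. edgeR called 0 of the 31 bodies, with 5 at unadjusted p under 0.05, where the likelihood ratio test called 19. Over all bodies edgeR called 1 of 17665, with 3425 at unadjusted p under 0.05. The member bodies had means of 69.7, 69.6, 68.6 and 64.0%, and all bodies 68.0, 68.2, 64.3 and 60.0%. Without 344SQR 2 the calls of Bst2, Eif2ak2, Ifngr2, Irf3, Irf4, Isg20, Oasl1, Trim25 and Tyk2 were lost, and Irf1, Irf2 and Irf9 were called instead. Without 344SQP 1 the bodies of Ifngr2, Irf3, Isg20, Mavs and Socs3 lost their calls and Tbk1 was called. Every member body called without 344SQP 1 was lower in 344SQR. Among them was Irf4, whose body was called higher with all 4 tumors (32.7, 44.05, 36.2 and 41.8%, FDR 0.0275). The direction of calls over all gene bodies is not given for this setting.

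The body of Irf8 fell by 15.2 points over 56 sites, with 65.4, 64.1, 58.1 and 41.1% (FDR 4.98e-183), and 46 sites were lower in 344SQR. Both 344SQR tumors were below both 344SQP tumors. Without 344SQR 2 the difference was -6.70 points and without 344SQR 1 it was -23.6 points. A run of 14 Irf8 sites in a coding exon, chosen from the values as the run with the largest difference, had 65.96, 61.9, 54.2 and 12.6% on 132 to 287 reads. In that run 344SQR 2 had 6.40 to 18.4% at single sites and the other 3 tumors had 46.5 to 76.5%. Its difference was -30.5 points, with -9.71 points without 344SQR 2 and -51.3 points without 344SQR 1. The stretch chr8:120739824-120739892 (GRCm38, + strand) holds this run, shown for the gap between 344SQR 2 and the other tumors, with measured CpGs in capitals.
Irf8 coding exon: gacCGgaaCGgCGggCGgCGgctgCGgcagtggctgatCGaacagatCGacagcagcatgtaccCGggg

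**Figure D3:**
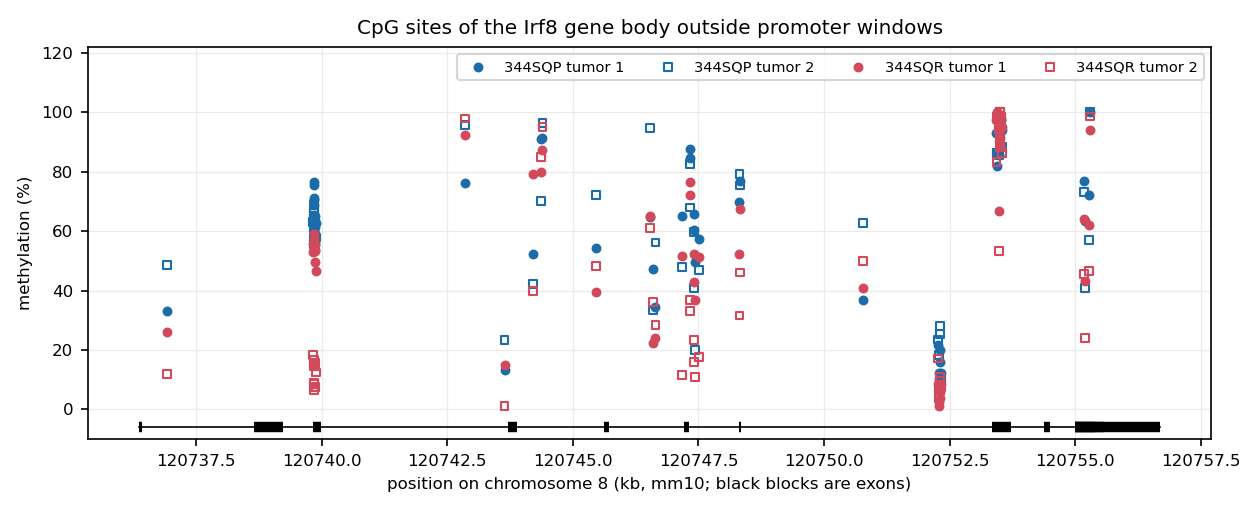
CpG sites of the Irf8 gene body outside promoter windows, with exons as black blocks. A run of 14 sites at 120739827 to 120739889 had 65.96, 61.9, 54.2 and 12.6%.

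Among member bodies with at least 3 sites, the next largest called differences were at Usp18, Dhx58, Ifngr2, Isg20 and Eif2ak2. Usp18 had 78.2, 77.4, 67.7 and 60.0% over 6 sites (FDR 7.46e-12). Dhx58 had 93.1, 91.1, 84.4 and 76.2% over 21 sites (FDR 9.05e-31), a difference of -11.8 points that was -7.74 points without 344SQR 2. For Usp18, Dhx58 and Eif2ak2 both 344SQR tumors lay below both 344SQP tumors. Eif2ak2 had 97.8, 97.9, 95.7 and 83.8% over 3 sites (-8.08 points, FDR 2.26e-06), with -2.17 points and no call without 344SQR 2, and -14.0 points without 344SQR 1. The lines overlapped for the 3 body sites of Ifngr2, with 63.8, 82.0, 74.8 and 88.6% (8.83 points, FDR 0.0212), and of Isg20, with 66.2, 50.2, 60.3 and 38.4% (-8.80 points, FDR 0.00186). The Ifngr2 body was not called without 344SQP 1 (-0.25 points) or 344SQR 2 (1.95 points), and without 344SQP 2 its difference was 17.9 points. The Isg20 body was not called without 344SQP 1 (-0.817 points) or 344SQR 2 (2.15 points), and without 344SQR 1 its difference was -19.8 points.

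Large called differences were also found at 2 bodies with 2 sites each, and in both genes the 344SQR tumors lay below the 344SQP tumors. Bst2 had 81.4, 84.8, 80.3 and 54.2% (-15.9 points, FDR 0.00721). It was not called without 344SQP 2 (-14.2 points) or 344SQR 2 (-2.80 points), and without 344SQR 1 the difference was -28.9 points. Ifit2 had 86.7, 86.9, 77.8 and 68.3% (-13.7 points, FDR 4.42e-05) and stayed called with any tumor left out, at -8.95 points without 344SQR 2.

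A wider list of 121 further interferon genes had 65 measured promoters, of which 13 (20%) were called, 11 lower (16.9%) and 2 higher (3.08%) in 344SQR, beside 38.5%, 29.5% and 9.02% of all promoters. edgeR called 0 of the 65, with 1 at unadjusted p under 0.05. Calls came from 2 of 2 measured ligand and receptor genes, 2 of 22 signal transducers and inhibitors (9.09%), 3 of 14 nucleic acid sensors and adaptors (21.4%) and 6 of 27 effectors (22.2%), again beside 38.5%. The largest difference was at Zcchc3, a cofactor of DNA and RNA sensing, which rose by 24.1 points over 12 sites with 24.0, 38.2, 42.8 and 67.7% (FDR 9.97e-47). The lines did not overlap at Zcchc3, and the difference was 11.6 points without 344SQR 2 and 36.6 points without 344SQR 1.

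The lines did not overlap in any of the next 8 genes of the wider list. Ifitm2, which blocks virus entry, had 34.2, 31.0, 19.6 and 21.9% (FDR 1.79e-12). Tmem173, the adaptor STING, had 84.4, 87.3, 82.4 and 74.0% (FDR 5.32e-05) and was not called without 344SQR 2 (-3.42 points). Differences of 0.9 to 3.2 points in size were called at Gbp7, Slfn9, Ifitm10, Irgm1, Ifnlr1 and Il10rb. Of these, Slfn9 lost its call without 344SQP 1 (-1.34 points) or 344SQR 2 (-1.32 points), and Irgm1 without 344SQR 1 (-1.31 points). Il10rb lost its call without 344SQP 1 (-1.12 points) or 344SQR 1 (-0.620 points), and Ifnlr1 without 344SQP 1 (-2.23 points), 344SQP 2 (-0.939 points) or 344SQR 2 (-1.26 points). Mb21d1 (Cgas), Ptpn1 and Slfn5 were called while their lines overlapped. Mb21d1 lost its call without 344SQP 2, Ptpn1 without 344SQP 1 or 344SQR 2, and Slfn5 without 344SQP 1 or 344SQR 1. Without 344SQP 1, Igtp, Irf2bp2, Nmi, Ptpn2, Ptpn6, Rnaseh2a and Socs7 were called in addition. More genes of the wider list were called higher without 344SQP 1, and also without 344SQP 2, than with all 4 tumors. In each of these settings 15 of the 65 were called, beside 7308 and 6997 of all 20135 promoters. The direction of calls over all promoters is not given for them.

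Because these are bulk tumors, fewer cells of a type and a change per cell cannot be told apart. Of 20 leukocyte markers 6 have a qualified promoter site, with means of 45.7, 54.2, 36.1 and 32.5%, and Ptprc, Cd4, Cd8a, Itgam and Csf1r have none. Among them Cd3e, Adgre1 and Vav1 were called lower, and Spi1 and Coro1a were not called. The macrophage marker Adgre1 had 65.9, 78.3, 36.2 and 9.20% at 1 site. Whether the values of Irf5, Irf8 and Bst2 move with leukocyte content was not tested. Of 10 epithelial markers 8 were measured, with means of 13.4, 12.2, 12.4 and 11.2%. Of the 8, 4 were called (50%, beside 38.5% of all promoters), all with overlap between the lines. Krt18, Krt19 and Cldn4 were lower (37.5%) and Grhl2 higher (12.5%), beside 29.5% and 9.02% of all promoters. Cdh1 (6.25, 6.04, 5.76 and 5.83%) and Epcam (4.51, 5.47, 5.77 and 4.56%) were not called. Of 5 lineage markers only Nkx2-1 was measured (9.86, 14.5, 12.7 and 18.7%), and it was called higher with overlap. Of 8 fibroblast markers 5 were measured (means 30.8, 36.1, 28.0 and 34.1%), with Col1a2 and Vim called lower without overlap and Pdgfra higher with overlap. Of 6 endothelial markers 3 were measured (means 38.0, 50.3, 32.7 and 57.0%), with Kdr and Cldn5 called higher with overlap and Pecam1 not called. Over the 23 measured markers 14 were called (60.9%), 9 lower (39.1%) and 5 higher (21.7%), beside 38.5%, 29.5% and 9.02% of all promoters.

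The RefSeq promoter table on GRCm38, with 300 bases per promoter, includes 35 of the 40 members, and Oas2, Dhx58, Usp18, Parp14 and Mx1 are missing from it. The core of the interferon-stimulated response element, GAAA then any 2 bases then GAAA on either strand, is present in 11 of 35 members (31.4%), beside 3.99% of 27025 genes in the table. These are Ifih1, Isg15, Oas3, Irf2, Bst2, Stat2, Rsad2, Socs1, Eif2ak2, Ifit3 and Ifit1. Of the 11, Isg15, Oas3, Rsad2, Ifit3 and Ifit1 have no qualified promoter site. The gamma-activated sequence TTCNNNGAA, on either strand, is present in 12 members (34.3%), beside 9.55% of genes. A match describes sequence only and does not show that a factor binds.

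The 250 bases upstream of the RefSeq start site are given for 4 of the unmeasured members and for Bst2, to show where the element lies in genes the method did not reach and in 1 it did, with the interferon-stimulated response element core in capitals. Bst2 carries 2 overlapping matches, and its 10 measured upstream sites were at 1.97, 2.06, 1.74 and 1.01%. Isg15 carries 3 matches, Ifit1 and Ifit3 carry 2 each, and Rsad2 carries 1.
Isg15 upstream: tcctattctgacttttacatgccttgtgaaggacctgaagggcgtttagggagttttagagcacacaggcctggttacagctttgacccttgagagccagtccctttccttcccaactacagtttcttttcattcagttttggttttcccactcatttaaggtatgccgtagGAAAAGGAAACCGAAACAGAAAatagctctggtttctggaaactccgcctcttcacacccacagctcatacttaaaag
Ifit1 upstream: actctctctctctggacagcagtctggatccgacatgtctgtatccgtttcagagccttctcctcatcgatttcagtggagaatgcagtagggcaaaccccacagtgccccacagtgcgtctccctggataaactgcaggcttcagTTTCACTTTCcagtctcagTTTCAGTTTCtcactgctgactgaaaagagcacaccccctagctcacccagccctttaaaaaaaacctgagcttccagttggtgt
Ifit3 upstream: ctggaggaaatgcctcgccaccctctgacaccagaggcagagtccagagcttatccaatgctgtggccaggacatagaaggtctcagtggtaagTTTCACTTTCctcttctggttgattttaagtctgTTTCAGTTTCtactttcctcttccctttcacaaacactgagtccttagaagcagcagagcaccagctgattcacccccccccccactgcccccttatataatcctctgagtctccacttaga
Rsad2 upstream: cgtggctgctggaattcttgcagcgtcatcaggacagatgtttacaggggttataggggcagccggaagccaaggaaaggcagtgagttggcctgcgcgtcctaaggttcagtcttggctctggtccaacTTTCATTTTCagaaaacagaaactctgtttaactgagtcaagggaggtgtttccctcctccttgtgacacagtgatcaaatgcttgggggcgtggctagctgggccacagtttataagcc
Bst2 upstream: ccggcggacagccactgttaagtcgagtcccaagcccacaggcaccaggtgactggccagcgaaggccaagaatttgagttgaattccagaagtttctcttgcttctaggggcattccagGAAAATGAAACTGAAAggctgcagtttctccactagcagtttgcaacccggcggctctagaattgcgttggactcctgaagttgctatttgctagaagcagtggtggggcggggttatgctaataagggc

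The reads were aligned to the C57BL/6J reference while the host mice are 129Sv/Ev, so a C to T variant at a CpG of a member promoter would read as unmethylated. Such a variant cannot be told apart from loss of methylation at a single site. RNA or protein of the 40 members was not measured in these files.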

How the data were processed

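The authors trimmed reads with Trim Galore 0.4.1 and cutadapt 1.9.1, aligned them to mm10 with Bismark on Bowtie 1.1.2 and called methylation per CpG. The deposited count of reads per site (coverage) was made by the authors with the Bismark extractor and a script of their own, for each strand of a CpG, and is not normalized. The deposited percent of methylated reads was computed by the authors from the same calls, and methylated reads were taken back as coverage times percent, rounded. Replicates come from separate mice and were not pooled. The p-values of edgeR measure spread between these samples, and those of the likelihood ratio test leave it out. The 40 members and the gene lists were chosen with earlier results of these data known.

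A site needed 20 reads or more in each of the 4 tumors. Windows came from GENCODE vM21 basic, joined over the start sites of a gene. Each site got a likelihood ratio test with line as the only factor, sites of a promoter or gene body were combined by Stouffer's z with sign, and FDR is Benjamini-Hochberg over all 20135 promoters. edgeR quasi-likelihood on methylated and unmethylated counts was the other test. Every measured member has its values given, and members with at least 3 sites and a tumor at 10% or more or a difference of at least 2 points, and every called member, had their differences followed through the alternatives that change sites, reads or tumors. From the wider list the 10 called promoters without overlap, and among gene bodies the 6 called bodies, with at least 3 sites and the largest differences in either direction were followed in the same way where the alternative applies. Alternatives were coverage of 10 and 50 reads, merged strands, the 5′ start site only, a window of 500 bp on each side, z without sign, equal depth, at least 3 sites, replicate blocks and each tumor left out. The pipeline was tested on simulated data. Versions were numpy 2.4.6, pandas 2.3.3, scipy 1.17.1 and matplotlib 3.10.9 under Python 3.11.15. In R 4.3.3 the versions were limma 3.58.1, which edgeR loads, and edgeR 4.0.16.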

Additional observations from a re-analysis of the deposited data

How the results depend on the processing

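The choice of test moved the counts most, and the cause was not tested. Without a replicate block edgeR called 0 member promoters, 0 promoters of the wider list and 0 member gene bodies, where the likelihood ratio test called 9, 13 and 19. Blocked by replicate number, edgeR called 3 of 30 member promoters (Bst2, Irf5 and Irf8) and 2 of 65 in the wider list, beside 2444 of 20124 promoters. It called 7 of 31 member bodies with that block, beside 4227 of 17665 bodies. A Mantel-Haenszel test with that block called 9 member promoters, 14 of the wider list, 20 member bodies and 7549 of all promoters. Tumors paired in the block share only a number, there are 2 pairs, and the deviations of tumors with the same number had r = 0.663 across 20135 promoters. Differences that reversed were Irf4 with both strands merged (1.20 points), the Ifngr2 body at 50 reads (-5.60 points), and with 1 tumor left out Irf4 (-4.30 to 3.60), the Ifngr2 body (-0.25 to 17.9) and the Isg20 body (-19.8 to 2.15). Leaving out each tumor gave 6 to 9 member promoters, 13 to 15 of the wider list, 13 to 18 bodies, 0 to 0 promoters by edgeR and a mean difference over members of -1.29 to -0.606 points. Among named member promoters 64 of 68 comparisons under other settings kept direction and call, whatever their size, 3 lost the call and 1 reversed, and the size changed by over 1.5 times in 2 of the 64 (Irf8 at 10 reads, -1.46 points, and Irf4 at equal depth, -1.13 points). With 1 tumor left out, 27 of 40 kept direction and call, 11 lost the call, 1 gained it and 1 reversed, and the size changed by over 1.5 times in 8 of the 27. Named bodies kept both in 22 of 24 and 19 of 24 comparisons, with such a change of size in 0 and 8, and named promoters of the wider list in 64 of 68 and 31 of 40, with such a change in 3 and 3. For the 5 single sites leaving out each tumor, and for zones and called sites leaving out Irf5, were chosen after seeing the data. The 5 sites were picked by size and do not overlap, so no direction could reverse, and the Oasl1 site ranged most, from -39.6 to -12.3 points. Without the sign of z, 6 member promoters were called: Irf9, Mavs, Oas2 and Trim25 were lost, and Irf4 was gained (FDR 3.67e-12). In the wider list that choice lost Ifitm10, Ifnlr1, Il10rb, Ptpn1 and Slfn9 and gained Batf3. In the window of 500 bp on each side Dhx58, Tmem173 and Ptpn1 were lost, the first 2 with no value left, and Irgm1 was not called at -0.417 points (FDR 0.572). A minimum of 3 sites leaves no value for Oas2, and 5 prime start sites alone leave none for Ifitm10. At 50 reads Trim25 (-1.58 points) and Oas2 (-4.60 points) were not called, nor were Ifnlr1 (-0.406 points, FDR 0.597) and Slfn9 (-1.73 points, FDR 0.134), and at equal depth Trim25 was not called at -2.50 points (FDR 0.0514). At 10 reads Irf8 stayed called at -1.46 points and Irgm1 at -0.377 points, while Ifnlr1 (-1.07 points, FDR 0.0579) and Slfn5 were not called. Depth limits single sites, since at 20 reads 1 read is 5 points.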
